A study of Mus musculus with 4 samples.

Results

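A set of 9 interferon-inducible GTPase genes, Igtp, Irgm1, Irgm2, Tgtp1, Tgtp2, Iigp1, Gbp2, Gbp3 and Gbp7, was followed across immune cells of the mouse pancreas and the pancreatic lymph node. They are 9 of 31053 genes in the count tables and were picked by symbol. The choice was made with expression values of these libraries in view, so the levels and ratios given here are descriptions. All mice were pre-diabetic females with floxed Ocab alleles, of a strain not given in the sources used here. Ocab, also called Pou2af1, encodes a coactivator of transcription known from B cells. The control mice were Ocabfl/fl without Cre, and the others were Ocabfl/fl.CD4-Cre, in which the Cd4 promoter drives Cre. Because that promoter is active while T cells develop in the thymus, CD4-Cre can delete a floxed gene in both CD4 and CD8 T cells. Pancreas libraries held CD45+ leukocytes sorted by flow cytometry from 12-week-old mice, with 4 animals pooled per genotype. Lymph node libraries held magnetically separated CD3 T cells of 8-week-old mice, with 5 animals pooled per genotype. There was thus 1 library in each of the 4 groups, with no replicate and no test between genotypes. All intervals are 95% intervals for counting error and do not cover the spread between mice or preparations. Age, organ and cell selection differ together between pancreas and lymph node and cannot be told apart.

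Interferons bind receptors that signal through JAK kinases and STAT proteins. Interferon gamma acts mainly through GAS elements in promoters, and type I interferon through ISRE elements, which IRF1 can also bind. The GTPases induced in this way defend cells against bacteria and parasites that live in vacuoles. Tgtp1, Tgtp2 and Iigp1 encode effector immunity-related GTPases, which load onto the vacuole and break it. Igtp, Irgm1 and Irgm2 encode regulatory relatives that sit on the cell's own membranes and keep the effectors inactive there. Gbp2, Gbp3 and Gbp7 encode guanylate-binding proteins, larger GTPases that coat vacuoles and bacteria. Irgm1 is also known for its part in lymphocyte survival.

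The promoters of the genes are shown first, because the genes are described as a group and share letters there. RefSeq promoter windows on GRCm38.p6, each of 300 bases, were used for 8 of the 9 genes. No window was used for Iigp1, so its promoter was not examined. The ISRE letters, GAAA repeated after any 2 bases, and the GAS letters TTCNNNGAA were searched on both strands. In the stretches below, 5′ to 3′ on the gene's strand, capitals mark these letters or their reverse complement.
Igtp (chr11:58199491-58199551, + strand): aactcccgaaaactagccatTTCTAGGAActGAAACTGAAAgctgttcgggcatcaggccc
Irgm2 (chr11:58214882-58214942, + strand): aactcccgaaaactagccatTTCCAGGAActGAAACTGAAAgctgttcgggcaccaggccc
Tgtp1 (chr11:48992294-48992354, - strand): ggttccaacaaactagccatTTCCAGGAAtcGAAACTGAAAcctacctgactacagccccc
Tgtp2 (chr11:49064253-49064313, - strand): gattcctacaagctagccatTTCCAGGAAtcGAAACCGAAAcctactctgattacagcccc
Irgm1 (chr11:48871415-48871470, - strand): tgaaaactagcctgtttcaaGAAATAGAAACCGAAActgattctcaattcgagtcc
Gbp2 (chr3:142620584-142620633, + strand): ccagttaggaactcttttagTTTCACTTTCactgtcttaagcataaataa
Gbp3 (chr3:142559979-142560034, + strand): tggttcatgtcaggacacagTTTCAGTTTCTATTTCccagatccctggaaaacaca
Gbp7 (chr3:142530210-142530312, + strand): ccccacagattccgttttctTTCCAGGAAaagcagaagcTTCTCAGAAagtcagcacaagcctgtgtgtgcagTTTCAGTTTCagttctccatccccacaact

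Counting the first listed window of each gene, all 8 held the ISRE letters, against 3.49% of 27025 mouse promoter windows of the same length. A second window listed for Gbp3 held neither the ISRE nor the GAS letters and is not counted. The GAS letters were in 5 of 8, against 8.47%, and both were in 5 of 8, against 0.514%. In Igtp, Irgm2, Tgtp1 and Tgtp2 the GAS letters began exactly 11 bases before the ISRE letters, so these 4 genes carry the same arrangement. In Irgm1 and Gbp3, 2 matches of the ISRE letters overlapped. Over the whole 300 bases, the windows of Igtp and Irgm2 were 73.5% identical in a pairwise alignment, and those of Tgtp1 and Tgtp2 were 67.7% identical. These are matches of letters, not measured binding sites.

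By the GENCODE M21 annotation of the same build, Irgm1 (48861968 to 48871683), Tgtp1 (48985327 to 48994172) and Tgtp2 (49057194 to 49064206) lie on the - strand of chromosome 11. Igtp (58199556 to 58207591) and Irgm2 (58199618 to 58222782) lie further along on its + strand. Gbp7 (142530342 to 142550149), Gbp3 (142560026 to 142573209) and Gbp2 (142620602 to 142638008) are neighbours on the + strand of chromosome 3, and Iigp1 is on chromosome 18. All are protein coding. Igtp and Irgm2 overlap in this annotation on the same strand, and Tgtp1 and Tgtp2 are near-identical copies. The split of counts within each of these pairs is therefore uncertain.

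The libraries listed 3059 to 6963 barcodes with 14851217 to 32798133 unique molecular identifiers (UMIs), of which 2918 to 6626 barcodes were kept with at least 500 genes and at most 10% mitochondrial UMIs. That mitochondrial limit was exceeded by 9.39% of lymph node CD4-Cre barcodes and by 1.01% to 5.92% in the other libraries. Pairs of libraries shared 21 to 70 barcode sequences. Marker genes set the cell classes. T barcodes with Cd4 and without Cd8a or Cd8b1 UMIs were called CD4-only, and those with the reverse CD8-only. CD4-only T barcodes numbered 923 (control) and 2116 (CD4-Cre) in the pancreas, and 1281 and 2786 in the lymph node. CD8-only T barcodes numbered 449, 701, 732 and 1583 in the same order. In the pancreas, B barcodes numbered 923 and 1370 and macrophage barcodes 127 and 117 in control and CD4-Cre. The lymph node libraries, labelled as T cells, held 44 and 1 B barcodes and 3 and 2 macrophage barcodes, which were too few to use. The T marker genes, 6 of 6 detected, summed to 4724 to 5233 UMIs per 1000000 UMIs of the class (CPM) in CD8-only barcodes, and to 11.2 and 14.3 CPM in B barcodes. The deleted gene was low in T cells. Pou2af1 in CD4-only T barcodes was at 6.19 CPM in the control and 0.924 in the CD4-Cre pancreas. In the lymph node it had 39 UMIs in the control library and 0 in the CD4-Cre library, a count that leaves room for 0.236 CPM (3 counts). In CD8-only T barcodes it had 5 and 4 UMIs in the pancreas, with overlapping intervals, so its loss was not detectable there at this depth. The lymph node CD8-only T barcodes had 14 and 2. In B barcodes it was at 224 and 247 CPM. Which exons the floxed alleles remove is not given in the sources used here.

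The 9 genes together were highest in lymph node T cells and lowest in B cells and neutrophils. Their summed level was 838 CPM (control) and 781 CPM (CD4-Cre) in lymph node CD8-only T barcodes, and 634 and 685 in lymph node CD4-only T barcodes. In the pancreas it was 541 and 563 CPM in CD4-only T, 397 and 517 in CD8-only T, 521 and 507 in macrophages, and 169 and 208 in B barcodes. Macrophages and pancreas CD4-only T barcodes had overlapping intervals in both genotypes. CD8-only T barcodes were below both in the control library (371 to 425 CPM) and overlapped macrophages in CD4-Cre. Natural killer barcodes, a class defined after a first look at the data, had 231 and 299 CPM. Neutrophil barcodes, defined in the same way, had 164 and 205 CPM, with intervals that overlapped those of B barcodes.

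Among the regulatory GTPases, Igtp and Irgm1 were higher in T cells of the lymph node than in B cells and macrophages. Igtp was at 149 and 168 CPM in control and CD4-Cre in lymph node CD4-only T, 147 and 159 in lymph node CD8-only T, and 144 and 146 in pancreas CD4-only T. It was at 85.2 and 107 CPM in pancreas CD8-only T, 31.7 and 43.3 in B and 44.9 and 61.3 in macrophage barcodes. T cells thus stood above both other classes in each pancreas library. Irgm1 was at 80.7 to 89.4 CPM in lymph node T barcodes and at 35.4 to 57.8 in T, B and macrophage barcodes of the pancreas. The macrophage and T cell levels of Irgm1 overlapped in the pancreas. Over T, B and macrophage barcodes, Irgm2 ranged from 9.28 CPM in control B barcodes to 22.2 in lymph node CD4-Cre CD4-only T.

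Of the effectors, Tgtp1 and Iigp1 were nearly undetected in B cells. Tgtp1, whose name stands for T cell-specific GTPase, was at 180 and 137 CPM in control and CD4-Cre in lymph node CD8-only T and at 99.9 and 106 in lymph node CD4-only T. In the pancreas it was at 48.8 and 56.0 CPM in CD4-only T and at 19.7 and 47.7 in CD8-only T, against 7.22 and 1.64 in macrophages and 0.732 and 2.18 in B barcodes. The B level came from 3 and 13 UMIs. Its near copy Tgtp2 was not so restricted, with 222 and 198 CPM in lymph node CD8-only T, 127 and 133 in lymph node CD4-only T, 60.4 and 87.5 in pancreas CD4-only T and 61.8 and 70.4 in pancreas CD8-only T. Tgtp2 was also at 23.4 and 30.9 CPM in B and 24.9 and 34.3 in macrophage barcodes. Iigp1 was at 19.7 and 23.1 CPM in lymph node CD4-only T, 17.2 and 16.7 in lymph node CD8-only T, and 21.4 and 17.8 in pancreas CD4-only T. It was at 4.68 and 13.7 CPM in pancreas CD8-only T and at 29.7 and 16.4 in macrophages. In B barcodes Iigp1 had 3 UMIs in each library, or 0.732 and 0.503 CPM. Natural killer barcodes were also low, with 2 and 3 UMIs of Iigp1 (1.63 and 1.60 CPM) and 3 and 14 of Tgtp1 (2.44 and 7.46 CPM). Neutrophil barcodes held 0 UMIs of Tgtp1, Tgtp2 and Iigp1, which allows up to 6.85 CPM (control) and 14.7 CPM (CD4-Cre).

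The guanylate-binding proteins had another order. Among T, B and macrophage barcodes, Gbp2 was highest in macrophages, at 173 and 156 CPM in control and CD4-Cre, and lowest in B barcodes, at 26.1 and 29.4. T cells lay between, at 68.7 and 67.0 CPM in lymph node CD4-only, 87.5 and 83.9 in lymph node CD8-only, 79.0 and 84.0 in pancreas CD4-only and 51.9 and 112 in pancreas CD8-only barcodes. Gbp3 was also highest there, at 84.2 and 80.9 CPM, and differed between the organs within T cells. It was at 7.70 to 12.6 CPM in lymph node T barcodes and at 26.5 to 28.6 in pancreas T barcodes, with no overlap of the intervals. This is the reverse of the order of Tgtp1 and Tgtp2, which were higher in the lymph node in every T comparison. Gbp7 was at 61.1 to 68.6 CPM in lymph node T, 80.5 to 90.8 in pancreas T, 92.2 and 104 in macrophage and 22.9 and 28.4 in B barcodes.

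**Figure D1:**
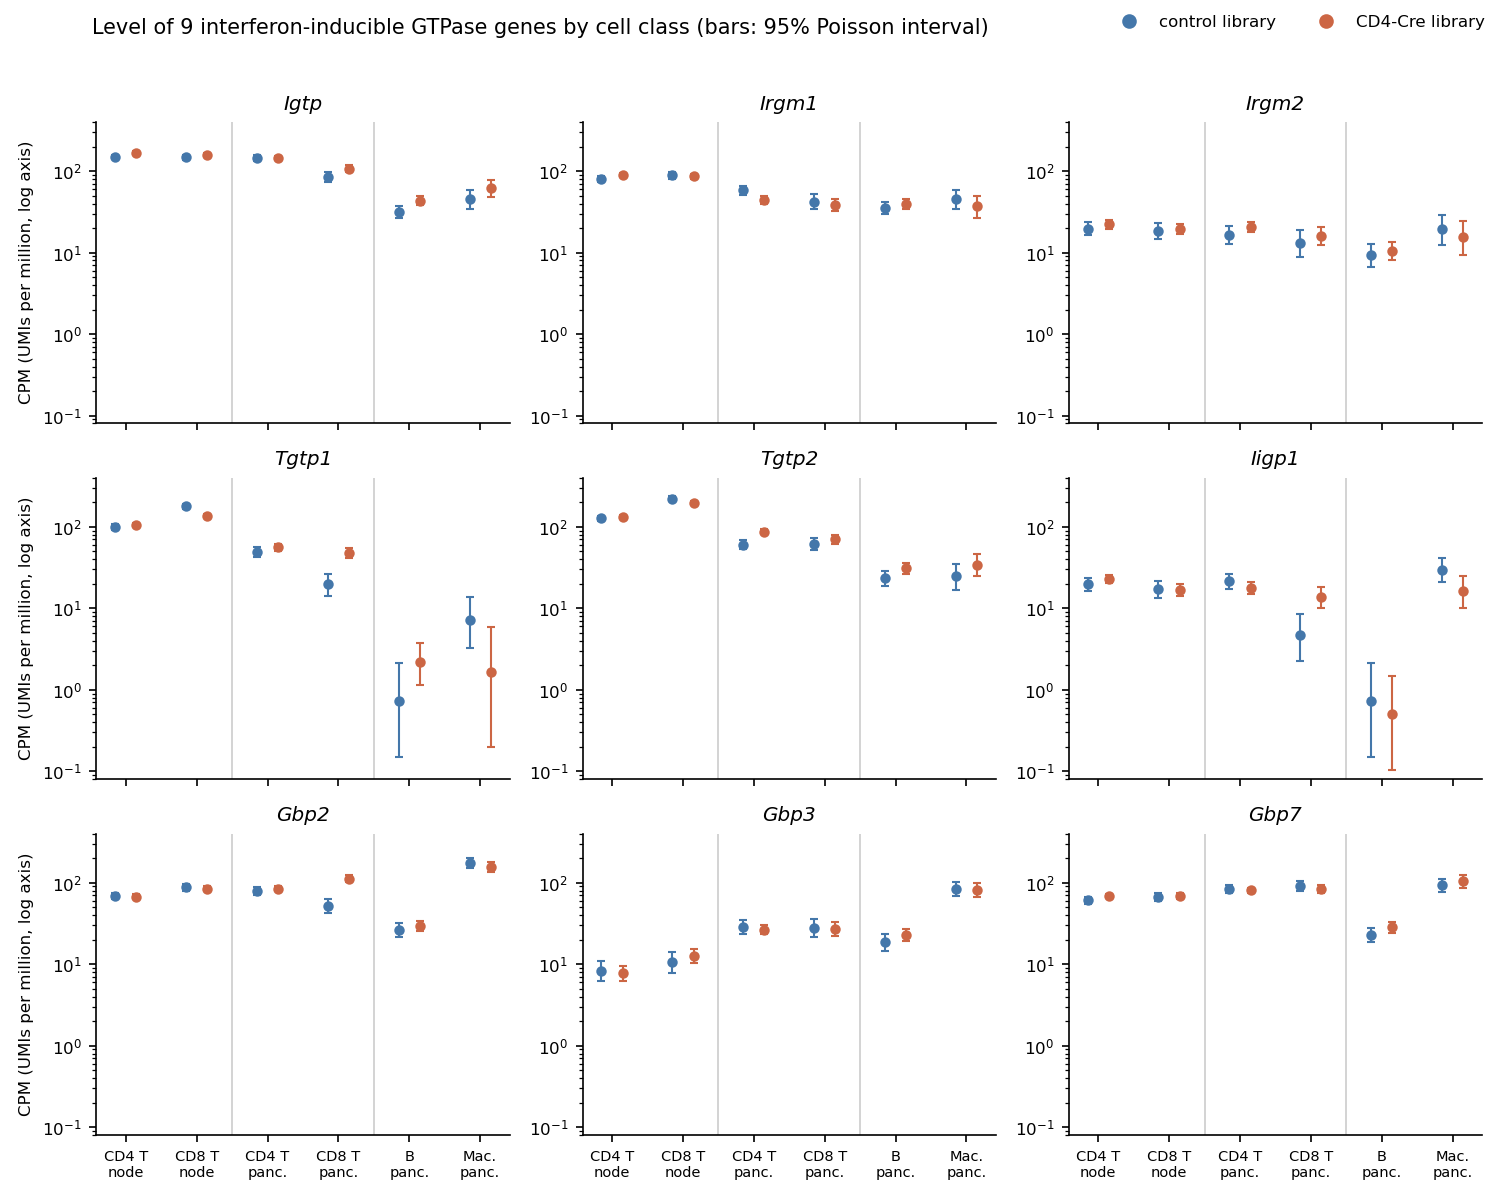
Level of each of the 9 genes in CPM on a log axis, for CD4-only T and CD8-only T barcodes of the lymph node and CD4-only T, CD8-only T, B and macrophage barcodes of the pancreas, with 95% Poisson intervals and control and CD4-Cre libraries as separate points. Tgtp1 and Iigp1 drop to at most 2.18 CPM in B barcodes, and Gbp2 is highest in macrophages, at 156 CPM or more.

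The share of Tgtp1 among all Tgtp1 and Tgtp2 UMIs was then taken within each class. In pancreas CD4-only T barcodes it was 44.7% (control) and 39.0% (CD4-Cre), and 44.0% and 44.4% in lymph node CD4-only T barcodes. In B barcodes it was 3.03% and 6.60%. In macrophages it was 22.5% and 4.55%, from 40 and 44 UMIs. In CD8-only T barcodes it was 24.1% (exact binomial interval 18.0 to 31.2) in pancreas control and 40.4% (35.8 to 45.2) in pancreas CD4-Cre. In the lymph node it was 44.8% and 40.9%. Pancreas control CD8-only T barcodes were therefore the T class with the lowest Tgtp1 share. The split of counts between these near copies is uncertain.

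The CD4-Cre library was then compared with the control in each class of the pancreas. The largest differences were in CD8-only T barcodes, where Tgtp1, Iigp1 and Gbp2 were higher in CD4-Cre. The ratios are of CPM, CD4-Cre over control, on the log2 scale. Tgtp1 had 42 and then 177 UMIs (log2 ratio 1.28, interval 0.79 to 1.80). The split of counts between Tgtp1 and its near copy Tgtp2 is uncertain. Tgtp2 had 132 against 261 UMIs (0.19, -0.12 to 0.50), and a ratio of the pair together was not taken. Iigp1 had 10 against 51 (1.55, 0.56 to 2.70), and Gbp2 111 against 416 (1.11, 0.80 to 1.43). With a pseudocount of 10 CPM the log2 ratio of Iigp1 was 0.69. These UMIs were spread over barcodes. The 177 Tgtp1 UMIs lay in 104 barcodes with at most 8 in any of them, the 51 Iigp1 UMIs in 40 with at most 5, and the 416 Gbp2 UMIs in 196 with at most 13. Of the 9 genes, 3 were higher and 0 lower by a fold of at least 1.3 (0.38 on the log2 scale). Among 9739 genes with at least 20 UMIs in this class, 14.2% were higher and 15.5% lower by that fold. The other 6 genes had log2 ratios from -0.14 (Irgm1) to 0.33 (Igtp). Only the interval of Igtp among these 6 left out 0, at 0.07 to 0.59. The summed level had a log2 ratio of 0.38 (0.26 to 0.50).

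T cell state genes also differed between these 2 pancreas libraries in CD8-only T barcodes. All 12 effector genes with enough UMIs were below control, 10 of them by 1.3-fold, with a median log2 ratio of -0.59. Of all genes, 15.5% were lower by that fold. Klrg1, a receptor of differentiated effector cells, was at 42.1 and 9.97 CPM in control and CD4-Cre, and the protease gene Gzma at 1197 and 444. Ccr7, the homing receptor of naive and central memory cells, was at 149 and 271 CPM (0.86, 0.68 to 1.05).

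RNA of some other cell types was also higher in the pancreas CD4-Cre CD8-only T barcodes. In control and CD4-Cre, the 7 acinar genes summed to 141 and 2543 CPM, the 5 plasma cell genes to 57.1 and 736, the 6 neutrophil genes to 25.3 and 288, and the 5 genes of type 1 dendritic cells to 74.4 and 105. All plasma cell and acinar genes were detected in both libraries. Of the type 1 dendritic cell genes, Clec9a, Cadm1 and Wdfy4 were at 0 in the control, and all 5 were detected in CD4-Cre. The same 5 genes summed to 85.4 and 69.0 CPM in lymph node CD8-only T barcodes. Their sum can therefore not be read as dendritic cell RNA alone. The 4 genes of type 2 dendritic cells summed to 27.6 and 61.7 CPM in the pancreas. The 8 macrophage genes were level, at 39.8 and 39.6 CPM, and the 6 monocyte genes were at 18.7 and 16.7. Leaving out the 4 control and 18 CD4-Cre barcodes with several dendritic, monocyte, neutrophil or plasma cell genes gave log2 ratios of 1.35 for Tgtp1, 1.37 for Iigp1 and 1.13 for Gbp2. The number of genes higher by 1.3-fold was then 5. The share of all genes was not taken for these barcodes, so this count has nothing to be set against. The part of acinar RNA was not tested.

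In CD4-only T barcodes of the pancreas the group as a whole was level, with a log2 ratio of the sum of 0.06 (-0.02 to 0.13). Tgtp2 was higher in CD4-Cre, at 234 against 757 UMIs (log2 ratio 0.53, 0.32 to 0.75). Irgm1 was lower, at 224 against 382 UMIs (log2 ratio -0.39, -0.63 to -0.14). The 1 gene higher and 1 lower of 9 stand beside 8.75% and 13.4% of 10614 genes. Irgm1 sat at the edge of the fold. Over 10 other settings its log2 ratio ran from -0.42 to -0.32, in part inside the fold, and that of Tgtp2 from 0.45 to 0.55.

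In B barcodes, where Pou2af1 was retained, all 7 genes with at least 20 UMIs were above control, and the sum had a log2 ratio of 0.30 (0.16 to 0.43). In this class 61.2% of 10235 genes were above control by any amount. Igtp, with 130 and 258 UMIs, had a log2 ratio of 0.45 (0.14 to 0.76), and Tgtp2, with 96 and 184, one of 0.40 (0.03 to 0.77). These 2 of 7 were higher by at least 1.3-fold and 0 were lower, beside 13.5% and 8.08% of all genes. In macrophages the sum had a log2 ratio of -0.04 (-0.20 to 0.12). Iigp1 was lower there, at 37 against 20 UMIs (log2 ratio -0.86, -1.72 to -0.04), the opposite of its direction in CD8-only T barcodes. Igtp at 0.45 (-0.07 to 0.98) and Tgtp2 at 0.47 (-0.24 to 1.18) were above the fold with intervals that included 0. Thus 2 of 8 macrophage genes were higher and 1 lower, beside 16.6% and 20.8% of 8065 genes. Tgtp1 had 9 and 2 UMIs in macrophages, too few for a ratio.

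The lymph node T cells showed smaller differences. In CD4-only T barcodes the log2 ratio of the sum was 0.11 (0.06 to 0.16), and the genes ranged from -0.11 (Gbp3) to 0.23 (Iigp1). Igtp, at 0.17 (0.06 to 0.28), was the gene with an interval that left out 0. None of the 9 passed a fold of 1.3 in either direction, beside 4.34% of 10419 genes higher and 14% lower. In CD8-only T barcodes the sum had a log2 ratio of -0.10 (-0.16 to -0.04). Tgtp1 had 764 against 1238 UMIs (log2 ratio -0.39, -0.52 to -0.26), and Tgtp2 942 against 1786 (-0.16, -0.28 to -0.05). Tgtp1 was the 1 gene of 9 past the fold there, and 0 were higher, beside 16.7% of 9843 genes lower and 4.59% higher. The median of all genes in this class was itself -0.11, and library sizes by TMM shift every ratio by 0.12. Relative to that shift, Tgtp1 was at -0.27, inside the fold, Tgtp2 at -0.05 and the sum at 0.02, so the direction of the sum depends on the scaling.

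Gene by gene, pancreas and lymph node differed in direction for 6 of 9 genes in CD8-only T barcodes (Tgtp1, Tgtp2, Iigp1, Gbp2, Gbp3 and Gbp7), beside 48.1% of 9175 genes. With TMM or DESeq2 library sizes it was 5 of 9, with Iigp1 and Gbp2 in the same direction in both organs and Irgm1 in opposite directions. Tgtp1 was the gene that passed the fold in both organs in opposite directions, at 1.28 in the pancreas and -0.39 in the lymph node. Of all genes in this class, 2.44% were higher in pancreas CD4-Cre and lower in lymph node CD4-Cre by that fold. The 2 control libraries were already far apart for Tgtp1, at 19.7 CPM in the pancreas and 180 in the lymph node, and the CD4-Cre libraries stood at 47.7 and 137. The split of counts between Tgtp1 and Tgtp2 is uncertain. Tgtp2 had log2 ratios of 0.19 in the pancreas and -0.16 in the lymph node, both inside the fold. In CD4-only T barcodes the direction differed for 4 of 9 genes (Irgm1, Iigp1, Gbp2 and Gbp7), beside 51.4% of 9975 genes, and for 3 of 9 under TMM. None of these 4 had intervals that left out 0 in both organs. Of the 6 genes in CD8-only T barcodes, only Tgtp1 had such intervals.

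**Figure D2:**
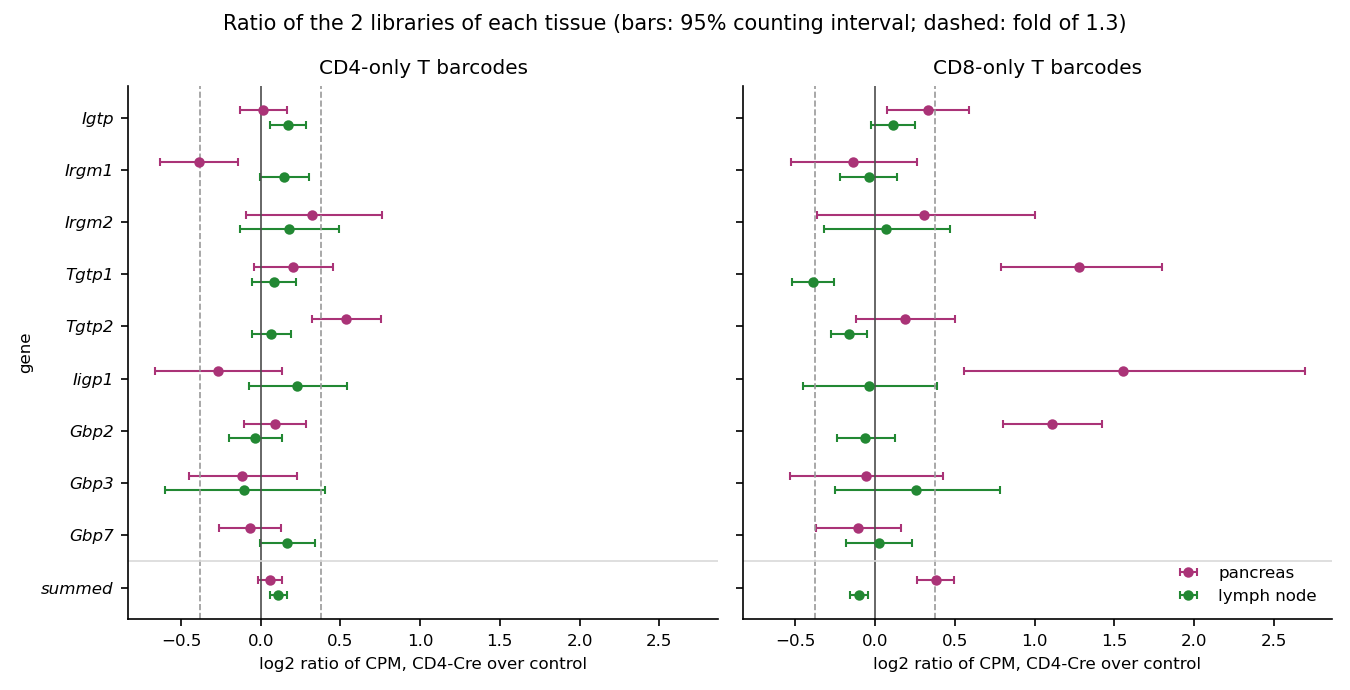
Log2 ratio of CPM, CD4-Cre over control, of each gene and of their sum in CD4-only T and CD8-only T barcodes, with pancreas and lymph node as separate points, 95% counting intervals, and dashed lines at a fold of 1.3. In CD8-only T barcodes Tgtp1 lies at 1.28 in the pancreas and -0.39 in the lymph node.

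The genes were also examined barcode by barcode, after each barcode was thinned to 2000 UMIs so that depth was equal. In pancreas CD8-only T barcodes, Tgtp1 was detected in 3.15% of control and 7.78% of CD4-Cre barcodes, Iigp1 in 1.21% and 3.74%, and Gbp2 in 10.4% and 15.6%. The unthinned shares were 6.68% and 14.8%, 2.23% and 5.71%, and 18.0% and 28.0%. No class here is known to lack these genes. In B barcodes, the thinned shares were 0.231% and 0.388% for Tgtp1 and 0.116% and 0.0776% for Iigp1. Median depths before thinning were 3821 and 4091 UMIs in CD8-only T and 3575 and 3440 in B barcodes.

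At least 2 of the 9 genes were detected in 16.2% of control and 20.96% of CD4-Cre CD8-only T barcodes of the pancreas, a difference of 4.74 percentage points (-0.11 to 9.32). With thinning to 1000 UMIs the shares were 6.49% and 9.01%, a difference of 2.53 points (-0.76 to 5.57), over 447 and 699 barcodes. With thinning to 3000 UMIs the shares were 23.1% and 35.7%, a difference of 12.7 points (6.39 to 18.6), over 325 and 543 barcodes. At 2000 UMIs the share was 23.6% and 22.9% in pancreas CD4-only T, 26.1% and 28.6% in lymph node CD4-only T, and 34.0% and 34.6% in lymph node CD8-only T barcodes. It was 5.67% and 6.90% in B and 12.8% and 20% in macrophage barcodes. The intervals of all 6 differences at 2000 UMIs included 0.

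The number of genes detected per barcode was then set against independent detection. If the genes had been detected independently of each other at their own shares, 5.12% of pancreas control CD4-only T barcodes would have held 3 or more, and 10.4% did, a ratio of 2.03 (1.65 to 2.47). In pancreas CD4-Cre the ratio was 1.96 (1.71 to 2.24). In pancreas CD8-only T the control ratio was 1.93 (1.22 to 2.88) and the CD4-Cre ratio 1.68 (1.27 to 2.16). It was 1.38 (1.16 to 1.63) and 1.32 (1.17 to 1.49) in lymph node CD8-only T, and 1.77 and 1.62 in lymph node CD4-only T. Barcodes with none of the genes were also more common than under independence, for example 48.0% against 37.5% in pancreas control CD4-only T. In B barcodes the ratio was 6.62 (3.54 to 11.3) and 4.86 (3.15 to 7.14), from 13 and 25 barcodes. In macrophages it was 3.21 (1.41 to 6.13) and 1.69 (0.78 to 3.09), from 8 and 9 barcodes, and the second interval includes 1. For 2 or more genes there was no such excess in T cells. The ratios ran from 0.91 to 1.03 over the 8 T class libraries, and that of lymph node CD4-Cre CD8-only T, 0.93 (0.87 to 0.995), was below 1. For 2 or more genes they were 0.97 and 0.92 in macrophages and 1.73 and 1.48 in B barcodes. No other set of genes was counted in this way.

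**Figure D3:**
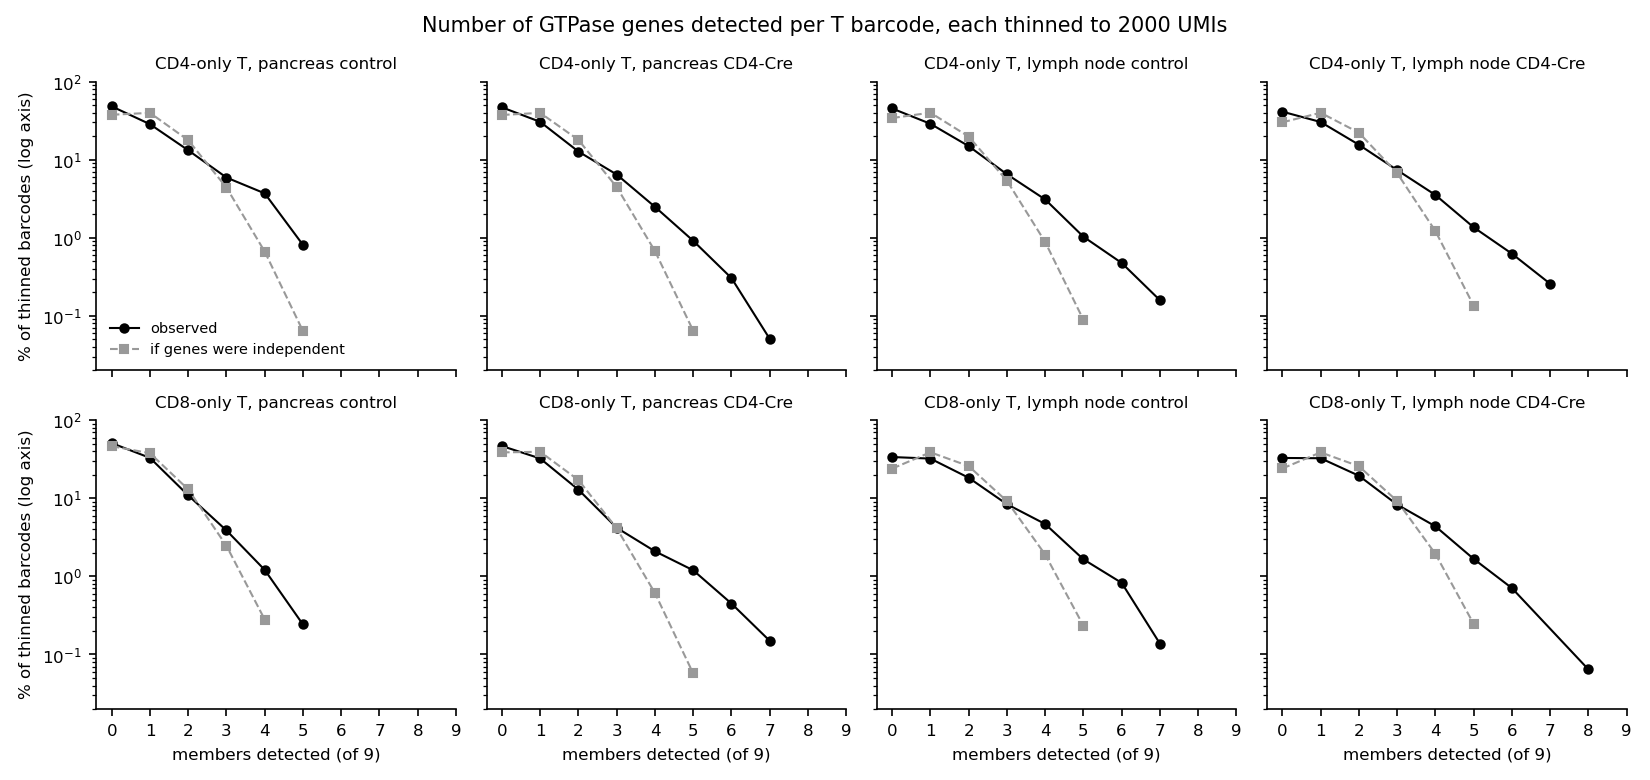
Share of barcodes on a log axis against the number of the 9 genes detected, in CD4-only T (top) and CD8-only T barcodes (bottom) of each library after thinning to 2000 UMIs. Black points are observed shares and grey squares the shares under independent detection, drawn down to 0.02%; observed shares exceed them at 4 and at 5 genes in every panel, for example 3.70% against 0.664% in pancreas control CD4-only T.

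By pairs, 34 combinations of genes could be compared in at least 1 T class and library with 5 or more barcodes expected to hold both. Summed over those classes and libraries, Iigp1 with Gbp2 had the highest ratio of observed to expected barcodes, 2.46 (78 barcodes), followed by Igtp with Irgm2 at 2.13 (173 barcodes). Part of the latter can be reads of 2 genes that overlap, which was not tested. Gbp3 with Gbp7 and Irgm2 with Tgtp1 were both at 1.96. The lowest was Irgm1 with Gbp3 at 1.19 (24 barcodes), and Tgtp1 with Tgtp2 was at 1.65 (546 barcodes). The ratio was above 1 for all 34 pairs in this sum. Immunity-related GTPases and guanylate-binding proteins were thus also detected together more often than the product of their single shares. The lowest ratios were nonetheless between the 2 subfamilies, with Irgm2 and Gbp2 at 1.33 and Tgtp1 and Gbp7 at 1.39 next after Irgm1 with Gbp3. The lowest within a subfamily were 1.57 (Irgm1 with Tgtp2) and 1.53 (Gbp2 with Gbp3). Iigp1 with Gbp2, the highest pair, also joins the 2 subfamilies. Pairs of other genes were not scored, so a ratio above 1 may not be particular to these genes.

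**Figure D4:**
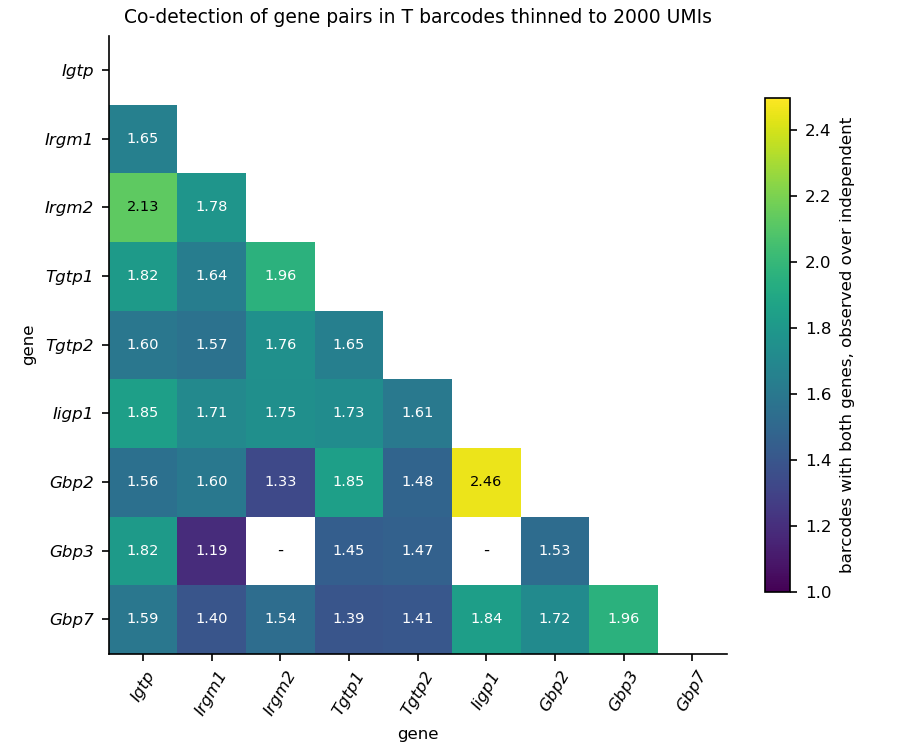
Barcodes in which both genes of a pair were detected, observed over expected from the single shares, summed over those of the CD4-only T and CD8-only T classes of the 4 libraries with at least 5 expected barcodes, after thinning to 2000 UMIs. A dash marks pairs with fewer than 5 expected barcodes in every class and library. Iigp1 with Gbp2 is highest at 2.46 and Irgm1 with Gbp3 lowest at 1.19.

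Genes that are no members were ranked in T barcodes by the lowest log2 ratio over the 4 libraries of their detected share in barcodes with 2 or more members over that in barcodes with none. Only genes detected in at least 5% of the barcodes with 2 or more members in every library were ranked. No such limit applied to barcodes with none, so a gene could enter through the group where it is high. The ranks are therefore descriptions. In CD4-only T barcodes, Rtp4, a chaperone of receptors induced by interferon, ranked first of 3620 genes. In the pancreas it was detected in 7.35% against 2.88% (control) and 8.87% against 2.28% (CD4-Cre), and in the lymph node in 14.8% against 5.09% and 19.3% against 6.08%. Gbp4, Zbp1 and Isg15 were also among the first 5. Gbp4 is another guanylate-binding protein, Zbp1 a sensor of nucleic acids, and Isg15 a ubiquitin-like modifier. In CD8-only T barcodes Rtp4 ranked first of 3167 genes as well, and Irf7, Gbp4 and Irf9 were among the first 5. Irf7 and Irf9 encode transcription factors of the interferon response. Rtp4 there was detected in 14.9% against 3.33% and 12.1% against 5.45% in the pancreas, and in 22.7% against 6.12% and 20.3% against 8.63% in the lymph node. Rtp4 and Gbp4 were in both sets. Of all genes ranked, 395 in CD4-only and 263 in CD8-only T barcodes had a higher share in every library.

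Over the 12 combinations of class and library, the gene whose log2 level followed the summed members most closely was Psme2, which encodes a part of the proteasome activator induced by interferon gamma (Pearson r = 0.968). It ranged from 291 to 695 CPM. Igfbp4, Ramp1, Tha1 and Atg14 were next among 8132 genes, with r from 0.957 to 0.965. These points share libraries and rest mostly on the difference between T and B cells, so r is a description.

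In pancreas CD8-only T barcodes, other genes of the pathway went in both directions. Of 10 further interferon-inducible GTPase genes with enough UMIs, 2 were higher in CD4-Cre by 1.3-fold and 3 lower. Of all genes, 14.2% were higher and 15.5% lower. The median log2 ratio of the 10 was -0.18, against 0.30 for the 9 genes and -0.01 for all genes. The 9 genes were chosen with these data in view and themselves went in both directions, so the medians are descriptions. Gbp5, another guanylate-binding protein, was at 10.8 CPM in control and 21.6 in CD4-Cre (log2 ratio 1.003, 0.32 to 1.74). Gbp2b was at 2.81 and 5.39 CPM (0.94, -0.43 to 2.55). Mx1, the antiviral dynamin-like GTPase, was at 10.8 and 4.85 CPM (-1.15, -2.12 to -0.20), and 9930111J21Rik1 at 16.8 and 9.97 (-0.76, -1.46 to -0.05). Of 34 type I interferon response genes 1 was higher and 16 were lower, beside the same shares of all genes, with a median of -0.31. Ifit3 was at 19.2 and 5.12 CPM and Ifi204 at 19.2 and 8.09, while Ifi47 was at 187 and 256 CPM (0.45, 0.28 to 0.62). Ifi47 is itself an immunity-related GTPase but was counted in the type I list, not among the 10 further GTPases.

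Of the genes of interferon signalling in the same barcodes, Ifng, the ligand of the type II receptor, was at 97.3 CPM in control and 63.6 in CD4-Cre (-0.61, -0.89 to -0.34). Ifngr2, a receptor chain, was at 14.0 and 20.8 (0.56, -0.06 to 1.22). Usp18, an inhibitor of type I signalling, was at 14.0 and 10.8 CPM (-0.38, -1.10 to 0.35). Of 15 interferon regulatory factors and interferon gamma response genes, 3 were higher and 2 lower, beside the 14.2% and 15.5% of all genes given above. The chemokines Cxcl10 and Cxcl9 went apart, at 29.5 and 11.9 CPM (-1.31) and 12.6 and 39.1 CPM (1.63). Irf8, which dendritic cells also express, was at 19.7 and 113 CPM (2.52, 2.06 to 3.01), beside the dendritic cell markers given above.

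In the other classes the medians of the type I list and the 9 genes were set side by side. The type I list had a median log2 ratio of -0.17 in pancreas CD4-only T, -0.08 in B and -0.61 in macrophage barcodes. In macrophages 21 of 32 type I genes were lower by 1.3-fold, beside 20.8% of all genes. The 9 genes had 0.02 in pancreas CD4-only T and, among those with enough UMIs, 0.30 in B and -0.10 in macrophage barcodes. In lymph node CD4-only T barcodes the medians were 0.15 for both. There 7 of 39 type I genes were higher by 1.3-fold, beside 4.34% of all genes. Among the 7 were Ifit3b (2.18, 1.05 to 3.55) and Ifit3 (1.34, 0.88 to 1.82). In lymph node CD8-only T barcodes the medians of the type I list and the 9 genes were -0.01 and -0.04. In that class 7 of 38 type I genes were higher and 3 lower by 1.3-fold, beside 4.59% and 16.7% of all genes. The further GTPases had medians of 0.08, 0.29 and -0.07 in pancreas CD4-only T, B and macrophage barcodes, and of -0.01 and 0.00 in lymph node CD4-only and CD8-only T. The medians of all genes in the same order were 0.01, 0.07 and -0.01 in the pancreas, and -0.08 and -0.11 in the lymph node.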

How the data were processed

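Droplet-based 5′ single-cell RNA libraries were sequenced from 4 samples, 1 per group. The deposited values are whole-number counts of UMIs per gene and barcode without normalization. They come from Cell Ranger on mm10, per the submitters' processing notes, and from software version 3.0.0, per the file headers. The annotation is not given in the sources used here. The member genes and all gene lists were chosen with earlier results of these data known.

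Barcodes with at least 500 genes and at most 10% mitochondrial UMIs were kept. T barcodes had at least 2 of 6 T genes, B barcodes at least 3 of 8 B genes, and macrophages at least 2 C1q genes with at least 3 UMIs in all and at least 2 of 5 further macrophage genes. Barcodes that met the core of another class were left out. No doublet caller was run. Classes with at least 50 barcodes were used. UMIs were summed per class and scaled to CPM. A gene needed 20 UMIs or more, control and CD4-Cre together, for a ratio. Levels have exact Poisson intervals, ratios exact conditional binomial intervals, shares exact Clopper-Pearson intervals, and differences of shares Newcombe intervals. All cover counting error at 95%, and a count of 0 has a floor of 3 counts. Levels of different genes are not ranked, since counts are not scaled by length. Thinning was random with a fixed seed. No p-value was computed with 1 library per group.

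Named genes were all 9 members, the 2 highest and the 2 lowest of a list in a class where given, the 5 genes most like the members' sum (log2 of CPM + 1, at least 500 UMIs), and the 5 leading genes of barcodes with 2 or more members (share of at least 5%). The further GTPase list had 19 genes, 16 of them in the tables. Of 31053 gene identifiers, 31011 were found in GENCODE M21. Scripts ran in Python 3.11.15 with scanpy 1.11.5, scipy 1.17.1 and R 4.3.3 with edgeR 4.0.16 and DESeq2 1.42.0, which gave library sizes only, and were tested on simulated data. Alternatives covered classes from clusters, barcode filters, library sizes, weights, fold, UMI minimum, pseudocount and thinning. A pair of further alternatives were chosen after seeing the data. Some planned results are not reported here, among them some list genes and 1 alternative under which some ratios moved.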

Additional observations from a re-analysis of the deposited data

Results flagged for a closer look

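The ratio of CD4-Cre over control in CD8-only T barcodes went in opposite directions in the 2 organs for Tgtp1 and for the summed members. For Tgtp1 the log2 ratio was 1.28 in the pancreas, from 42 and 177 UMIs, and -0.39 in the lymph node, from 764 and 1238 UMIs, each with a counting interval that left out 0. For the sum it was 0.38 in the pancreas and -0.10 in the lymph node. The difference between the organs was not tested, since each group has 1 library. With TMM library sizes the lymph node values were -0.27 for Tgtp1 and 0.02 for the sum. The split of counts between Tgtp1 and its near copy Tgtp2 is uncertain. By CPM, Tgtp2 was at 0.19 in the pancreas and -0.16 in the lymph node.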

How the results depend on the processing

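No paired analysis was possible because each group has 1 library. The cause of the changes below was not tested. The log2 ratio of the summed members in pancreas CD8-only T was 0.51 without deep barcodes (over 3 times the class median of UMIs, a setting chosen after seeing the data) and 0.50 with equal weight for each barcode. With TMM and DESeq2 library sizes it was 0.20 in lymph node CD4-only T by both, and 0.016 and 0.012 in lymph node CD8-only T.

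The number of members past the fold rests on few genes near it. The share of all genes past the fold was taken only in the main setting. The counts below under other folds, filters, weights or library sizes therefore have nothing to be set against. They show only how the number of members moved. In pancreas CD4-only T, 2 were higher with equal weights and at a fold of 1.2, and 0 at a fold of 1.5. There 0 were lower with classes from clusters, stricter barcode filters, barcodes of 2 classes kept, DESeq2 sizes and a fold of 1.5, while 2 were lower at 1.2. In pancreas CD8-only T, 5 were higher without barcodes holding markers of other classes (chosen after seeing the data), without deep barcodes and at 1.2. In B barcodes 5 were higher with barcodes of 2 classes kept, 4 at 1.2, 1 with TMM or DESeq2 sizes and 0 at 1.5. In macrophages 0 were higher with clusters or at 1.5, and 1 with barcodes of 2 classes kept or at least 100 UMIs. There 3 were lower with clusters or at 1.2, 2 with barcodes of 2 classes kept or without deep barcodes, and 0 with at least 100 UMIs. In lymph node CD8-only T, 1 was higher with equal weights, and 0 were lower with TMM or DESeq2 sizes, equal weights or 1.5.

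The difference in barcodes with 2 or more members in pancreas CD8-only T, 4.74 points at 2000 UMIs, was 2.53 at 1000, 12.7 at 3000 and 12.8 unthinned. Barcodes with both genes, all pairs together, observed over expected, were above 1 at every depth. At 1000 UMIs the ratio was 2.16 and 2.02 in pancreas CD4-only T of control and CD4-Cre, 2.93 in CD4-Cre B, 1.95 and 1.95 in lymph node CD4-only T, and 1.93 and 1.58 in lymph node CD8-only T. At 3000 UMIs it was 1.62 in CD4-only and 1.42 in CD8-only T of pancreas CD4-Cre, 1.54 in lymph node CD4-Cre CD4-only T, and 1.403 and 1.36 in lymph node CD8-only T.

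Depth limits Tgtp1 and Iigp1 in B cells and Tgtp1 in macrophages, which had 2 to 13 UMIs, and Pou2af1 in pancreas CD8-only T. The pooling of animals leaves the spread between mice unmeasured.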
